A study of Mus musculus with 95 samples.

Results

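The subject is a set of 1852 of the 5454 RING1B peaks called in wild-type mouse embryonic stem cells, namely those that overlapped no PCGF1, PCGF2, PCGF3 or PCGF6 peak called in the same cells. They are called PCGF-negative below, and the other 3602 PCGF-positive. The members were chosen on the presence or absence of a call in 4 ChIP-seq peak lists, so that their lack of a wild-type PCGF peak is the rule and not a result, and a site without a call may still hold protein below the calling threshold. The wild-type PCGF lists differed in length, with 736 peaks for PCGF1, 4472 for PCGF2, 223 for PCGF3 and 1868 for PCGF6, and they overlapped 587, 3167, 47 and 828 of the RING1B peaks. PCGF2 therefore decided most of the division, and lists for PCGF4 and PCGF5 were not analysed here.

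The study asked which binding sites and genes depend on which PCGF protein. All cells were of the E14 line or made from it, kept on gelatin in medium with serum, LIF and small-molecule blockers of MEK1/2 and GSK3β. The knockout lines, each a clone made with Cas9, were Pcgf1-/-, Pcgf2/4-/-, Pcgf3/5-/-, Pcgf6-/-, Pcgf1/2/4-/- and Pcgf3/5/6-/-. Bmi1 encodes PCGF4. Further PCGF lists came from Ezh1/2-/- cells, from a Ring1a-/- line with floxed Ring1b and an inducible Cre (Ring1a-/-_Ring1bfl), from the same line after loss of Ring1b (Ring1a/b-/-), and from cells with short hairpins (shUsf1, shUsf2, shMGA, shMGAdHLH, shE2F6, shE2F6-MGAdHLH and the control shCtr). Each ChIP list came from 1 library, apart from RING1B and H2AK119Ub1 in Pcgf1/2/4-/-, which had 2, so no ChIP difference below has a replicate check. RNA-seq had 2 libraries a line.

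RING1A and RING1B are the ubiquitin ligases of Polycomb repressive complex 1 and place a single ubiquitin on histone H2A (H2AK119Ub1). Each complex holds 1 of the PCGF proteins, which decides the partners: PCGF2 and PCGF4 sit in canonical complexes whose CBX subunits read H3K27me3, the mark set by the SUZ12-containing complex PRC2, while PCGF1, PCGF3, PCGF5 and PCGF6 form variant complexes that are recruited by other DNA-binding or CpG-binding subunits. In embryonic stem cells these complexes lie mainly on CpG islands of silent developmental genes, many of which also carry H3K4me3.

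The 6 PCGF-negative peaks with the highest RING1B signal lay at both CpG-rich and exonic coding sites, and the bases around the summits of all but the Prokr2 peak are printed to show this. The windows hold 200 bases of the plus strand of NCBIM37, written 5′ to 3′, with CpG dinucleotides in capitals. The Twist1 window, from the sixth-ranked peak at a promoter, takes the place of Prokr2.
Apoa1 exon chr9:46038244-46038443: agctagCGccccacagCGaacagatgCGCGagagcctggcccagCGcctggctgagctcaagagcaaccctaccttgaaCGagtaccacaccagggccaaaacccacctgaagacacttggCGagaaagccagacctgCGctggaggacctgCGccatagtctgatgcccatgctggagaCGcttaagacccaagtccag
Apoa4 exon chr9:46050930-46051129: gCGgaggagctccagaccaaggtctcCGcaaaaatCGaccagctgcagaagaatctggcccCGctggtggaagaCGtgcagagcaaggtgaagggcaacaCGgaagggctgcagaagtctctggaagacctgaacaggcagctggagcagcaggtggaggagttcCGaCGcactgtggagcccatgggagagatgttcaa
A830082K12Rik and Nr2f1 chr13:78337417-78337616: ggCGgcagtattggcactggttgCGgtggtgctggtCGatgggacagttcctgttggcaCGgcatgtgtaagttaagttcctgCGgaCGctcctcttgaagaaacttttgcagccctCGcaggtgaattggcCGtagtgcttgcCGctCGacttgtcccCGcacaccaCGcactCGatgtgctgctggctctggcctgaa
B230319C09Rik, intergenic chr6:83406894-83407093: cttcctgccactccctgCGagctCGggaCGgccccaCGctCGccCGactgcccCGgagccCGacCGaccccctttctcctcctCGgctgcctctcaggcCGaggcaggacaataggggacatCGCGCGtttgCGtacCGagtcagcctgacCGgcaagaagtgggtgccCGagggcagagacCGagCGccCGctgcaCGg
Slc9a5 chr8:107873357-107873556: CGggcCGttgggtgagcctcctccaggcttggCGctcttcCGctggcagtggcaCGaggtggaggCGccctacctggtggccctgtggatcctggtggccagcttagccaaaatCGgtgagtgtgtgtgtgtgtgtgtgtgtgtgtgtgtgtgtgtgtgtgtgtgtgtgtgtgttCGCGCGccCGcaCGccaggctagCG
Twist1 chr12:34640914-34641113: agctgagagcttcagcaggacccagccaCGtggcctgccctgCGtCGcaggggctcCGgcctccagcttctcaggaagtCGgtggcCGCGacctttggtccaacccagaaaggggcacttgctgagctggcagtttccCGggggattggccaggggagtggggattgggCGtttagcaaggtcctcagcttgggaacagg

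The strongest PCGF-negative peak, chr9:46037832-46038557, had a RING1B fold enrichment of 15.6 and ranked 1061 among all RING1B peaks. It lay 1028 bp from a start of Apoa1, which encodes the main protein of high-density lipoprotein, and 91.2% of it was Apoa1 exon. Its window above was coding sequence throughout and held 10 CpGs. It overlapped wild-type H3K4me3 but not SUZ12, and RING1B was called there in 0 of the 7 other RING1B lists. A neighbouring peak, chr9:46050362-46051482, had a fold of 11.9 and lay wholly in exons of Apoa4, another apolipoprotein gene. It overlapped none of the 7 other wild-type marks and factors examined, no RING1B peak in another list and no PCGF peak in any of the 26 lists from other lines. The other 4 of the 6 strongest members were all overlapped by SUZ12 and H3K4me3.

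Near Nr2f1, which encodes an orphan nuclear receptor, the peak chr13:78337291-78337686 had a fold of 12.0. It lay 13 bp from a start of the noncoding gene A830082K12Rik, shared 77.3% of its length with Nr2f1 exon, and was 148 bp from the nearest wild-type PCGF peak. RING1B was called there in 5 other lists. The intergenic peak chr6:83406661-83407812 had a fold of 12.0, lay 14855 bp from the nearest annotated start, that of B230319C09Rik, and was 243150 bp from the nearest wild-type PCGF peak. Its window was the richest in CpG of those shown, with 22. Prokr2, a receptor for prokineticins, had a peak over its start, chr2:132210008-132211393, with a fold of 11.6, SUZ12, H3K27me3 and H3K4me3, and 77919 bp to the nearest PCGF peak. Peaks at Slc9a5, a sodium-proton exchanger (chr8:107873280-107873910, fold 11.4), and Twist1, a bHLH transcription factor (chr12:34640717-34641275, fold 10.97), lay 166 and 175 bp from a PCGF peak. Of the 6 strongest members, 4 lay at least 39432 bp from a called PCGF peak and 2 within 166 bp of one.

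At the edge of the rule, the members nearest to a PCGF peak without touching it were chr6:90686350-90687358 by Iqsec1, with a gap of 2 bp and a fold of 5.22, and chr12:71211390-71211689 by Nin, with a gap of 71 bp and a fold of 5.20. The least overlapped PCGF-positive peaks were chr13:64374991-64376296 by Cdc14b, with 9 bp shared and a fold of 7.82, and chr7:149470196-149470525 by Gm10013, with 51 bp shared and a fold of 5.46.

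PCGF-negative peaks were weak and narrow. Their median RING1B fold enrichment, the authors' value for each peak over its control, was 6.10, with quartiles of 5.45 and 7.03 and a range from 3.74 to 15.6. PCGF-positive peaks had a median of 11.7, quartiles of 8.49 and 16.7, and a highest value of 35.1. Median widths were 607.5 bp and 1404 bp. Of the PCGF-negative peaks, 95 (5.13%) reached the median fold of all RING1B peaks, 8.72. They made up 0 of the 1000 strongest RING1B peaks and 797 of the 1000 weakest. Because signal differed this much, the contrasts in position, marks and fate were also made within ranges of RING1B fold, chosen after seeing the data. Fold 6 to 8 held 786 PCGF-negative and 508 PCGF-positive peaks, and fold under 6 held 862 and 230.

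**Figure D1:**
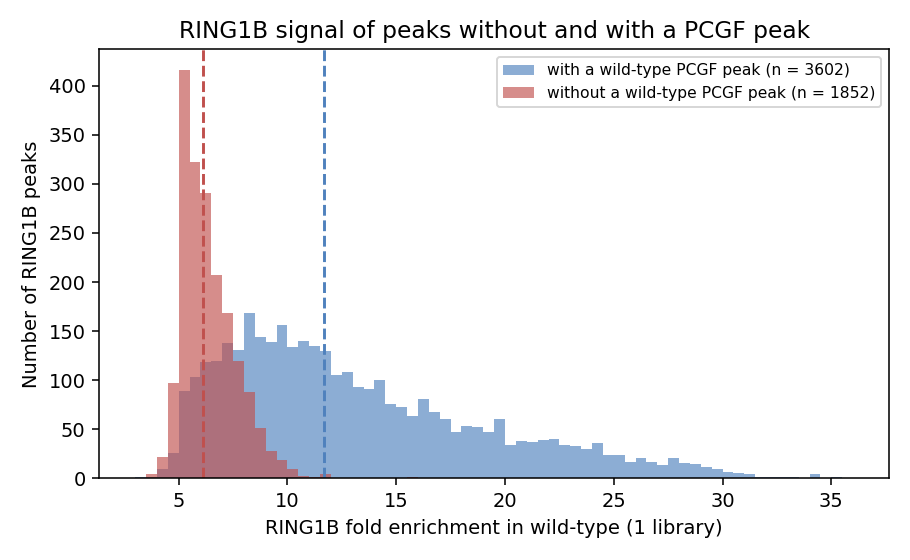
Number of wild-type RING1B peaks (y axis) by RING1B fold enrichment in bins of equal width (x axis), for 1852 peaks without and 3602 peaks with a wild-type PCGF peak; dashed lines are the medians, 6.10 and 11.7. The peaks without a PCGF peak crowd at the low end and hold none of the 1000 strongest.

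Most PCGF-negative peaks lay at promoters. Within 2500 bp of an annotated transcript start were 75.5% (95% Wilson interval 73.5 to 77.4), against 82.0% of PCGF-positive peaks and 79.8% of all RING1B peaks. Wilson intervals count peaks of 1 library and hold no error between libraries. A transcript start lay inside 32.8% of PCGF-negative peaks, against 58.1% of the wider PCGF-positive peaks and 49.5% of all. Intergenic positions made up 13.4% and 9.11%, introns 4.00% and 2.11%, and exons away from a promoter 7.07% and 6.77%. At fold 6 to 8 the promoter shares were 74.0% (70.9 to 77.0) and 76.2% (72.3 to 79.7), with overlapping intervals.

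The set held sites beside PCGF peaks and sites far from them. The median distance to the nearest wild-type PCGF peak was 31073 bp, 451 members (24.4%) had one within 1000 bp, and 1250 (67.5%) had one within 100000 bp. A PCGF-positive RING1B peak lay within 10000 bp of 682 members (36.8%), close to the 37.2% of PCGF-positive peaks that had another one as near.

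Around their summits, PCGF-negative peaks were less rich in CpG than PCGF-positive peaks and richer than annotated starts. In windows of 300 bp the median GC content was 62% in PCGF-negative peaks, 65.3% in PCGF-positive peaks and 57.3% at 69976 starts of protein-coding transcripts. The ratio of observed to expected CpG had medians of 0.674, 0.784 and 0.520. A GC content of at least 55% with a ratio of at least 0.6 was found in 56.1% (53.8 to 58.3), 80.4% (79.1 to 81.7) and 41.4% of windows. The E-box CACGTG, which reads the same on both strands and is the core site of USF and MGA-MAX dimers, was in 7.67%, 9.22% and 6.76% of these windows. TTCCCGC, an E2F core, on either strand was in 7.72%, 9.11% and 5.78%. For both motifs the intervals of PCGF-negative peaks (6.54 to 8.97 and 6.59 to 9.03) overlapped those of PCGF-positive peaks (8.32 to 10.2 and 8.21 to 10.1). A match is only these letters in the window.

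SUZ12 and H3K4me3, a mark of active promoters, lay together on most PCGF-negative peaks, whereas H3K27me3 was called on a minority. SUZ12, a core PRC2 subunit, overlapped 83.9% (82.2 to 85.5) of them, against 92.3% of PCGF-positive peaks and 89.5% of all. H3K4me3 overlapped 80.9%, against 92.0% and 88.2%, and SUZ12 and H3K4me3 together 70.4%, against 85.5%. H3K27me3, the mark laid by PRC2, was called on 42.1% (39.8 to 44.3), against 68.4% and 59.5%. SUZ12, H3K27me3 and H3K4me3 lay together on 31.0%, against 62.7% and 52.0%. H2AK119Ub1, the product of RING1B itself, was called on 5.99% (5.00 to 7.17), against 21.5% and 16.3%, from a wild-type list of 1741 peaks. Only 104 members (5.62%) had neither SUZ12 nor H3K4me3, compared with 1.08% of PCGF-positive peaks. H3K36me3, a mark of transcribed gene bodies, overlapped 0.918% of PCGF-negative and 0.805% of PCGF-positive peaks and 0.843% of all.

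WDR5, which is shared by H3K4 methyltransferases and the PCGF6 complex, overlapped 3.24% of PCGF-negative and 17.2% of PCGF-positive peaks, and 12.4% of all. USF1, a bHLH factor that binds the E-box, overlapped 4.37%, 10.99% and 8.75%. At fold 6 to 8 the order was the other way for SUZ12, with 90.6% (88.3 to 92.4) of PCGF-negative and 76.6% (72.7 to 80.0) of PCGF-positive peaks. H3K27me3 stood at 43.5% and 40.7% there, with overlapping intervals, and WDR5 at 2.54% and 29.3%. H2AK119Ub1 stood at 6.62% (5.08 to 8.57) and 9.65% (7.37 to 12.5) at fold 6 to 8. Its shares under fold 6 were 5.22% (3.92 to 6.91) and 8.70% (5.70 to 13.0). The H2AK119Ub1 intervals thus overlapped in both ranges, unlike those over all peaks. Under fold 6, SUZ12 was on 74.7% of PCGF-negative and 48.7% of PCGF-positive peaks. H3K27me3 was on 38.4% (35.2 to 41.7) and 23.9% (18.9 to 29.8) of them. The lower SUZ12 and H3K27me3 shares of PCGF-negative peaks as a whole therefore did not hold among peaks of like RING1B signal below fold 8.

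**Figure D2:**
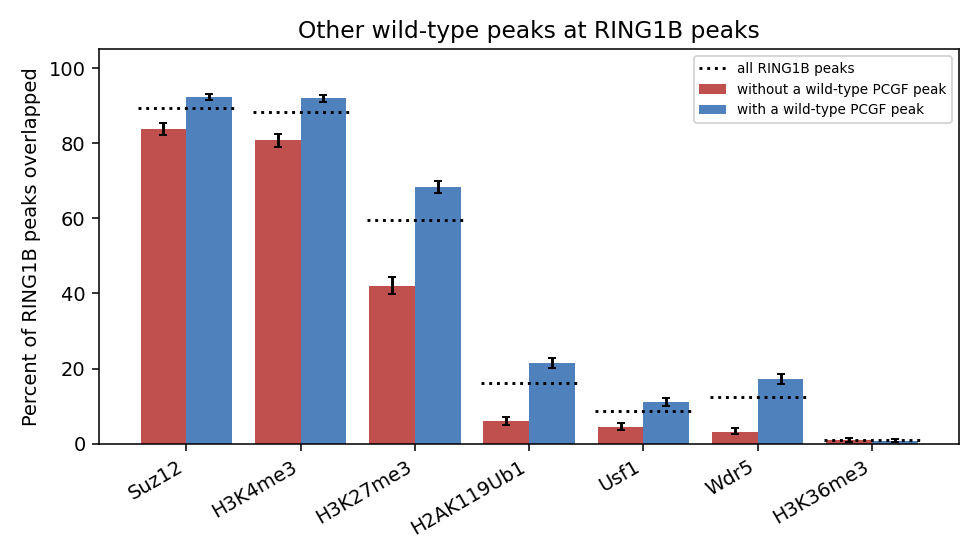
Percent of RING1B peaks (y axis) overlapped by a wild-type peak of each mark or factor (x axis); bars are peaks without and with a wild-type PCGF peak, whiskers are 95% Wilson intervals over peaks of 1 library, and dotted lines are all 5454 RING1B peaks. SUZ12 and H3K4me3 exceed 80% on both kinds, while H3K27me3 stands at 42.1% and 68.4%.

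Although no PCGF was called on them in wild-type cells, PCGF peaks were called on nearly all of these sites in some other line. At least 1 of the 26 PCGF lists from other lines (own knockouts and Ring1a/b-/- left out) overlapped 1786 members (96.4%), against 98.8% of all RING1B peaks. PCGF2 was called on 81.7% (79.9 to 83.4) in at least 1 of 5 lists, against 88.2% of all. PCGF1 was called on 69.8% (67.6 to 71.8), against 82.9%, and PCGF6 on 42.7% (40.5 to 45.0), against 64.3%. PCGF3 was called on 9 members (0.486%), against 2.82%. In the line that lacks the PCGF in question, the 4 lists together overlapped 12 members (0.648%), against 2.46% of all. In Ring1a/b-/- cells the PCGF lists overlapped 67 members (3.62%), against 14.2%.

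The largest shares came from 3 long lists. PCGF2 in Pcgf6-/-, a list of 7739 peaks against 4472 in wild-type, overlapped 1420 members (76.7%), against 84% of all RING1B peaks. PCGF1 in Ring1a-/-_Ring1bfl, with 12735 peaks against 736, overlapped 66.4%, against 80.6%. PCGF6 in Pcgf2/4-/-, with 12842 peaks against 1868, overlapped 40.5%, against 60.6%. Lists of medium length overlapped fewer: PCGF1 in Ezh1/2-/- took 25.2% (50.8% of all), PCGF2 in Ring1a-/-_Ring1bfl 24.2% (53.5%), PCGF2 in Pcgf1-/- 22.4% (56.8%), and PCGF6 with the control hairpin 22.4% (45.6%). Within an antibody, longer lists mostly overlapped larger shares: the 5 PCGF1 lists ran from 214 peaks and 0.378% of members to 12735 peaks and 66.4%. The part of list length in these calls was not tested. Ring1a-/-_Ring1bfl, although labelled Ring1a-/-, and shCtr were taken as control lines. With their PCGF peaks added to the wild-type ones, 380 RING1B peaks had no PCGF call. Other lines with no labelled PCGF loss, such as Ezh1/2-/- and the other hairpins, were not added.

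**Figure D3:**
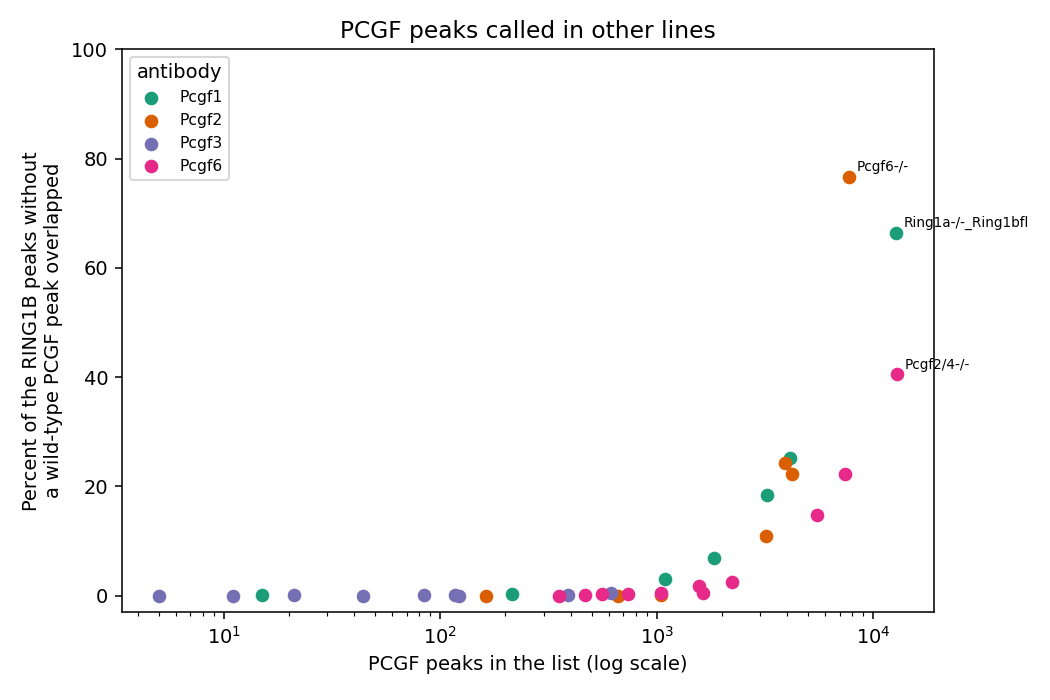
Percent of the 1852 RING1B peaks without a wild-type PCGF peak (y axis) overlapped by each PCGF list from another line, own knockouts and Ring1a/b-/- included, against the number of peaks in that list (x axis, log scale); colours are antibodies, and lists above 30% are named. The 3 named lists, with 7739, 12735 and 12842 peaks, reach 76.7%, 66.4% and 40.5%.

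The 66 members with no PCGF call in those 26 lists had lower values than the other members in several readouts, with no test. Their median RING1B fold was 5.56 against 6.12, 56.1% against 76.2% lay at a promoter, 54.5% against 85.0% had SUZ12, and 53.03% against 81.9% had H3K4me3. RING1B was called on 31.8% against 61.8% of them in Pcgf1-/- and on 9.09% against 41.5% in Pcgf2/4-/-. The Apoa4 exon peak belongs to these 66.

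RING1B was called less often on PCGF-negative than on PCGF-positive peaks in each of the 6 knockout lines. In Pcgf6-/- 63.1% (60.9 to 65.3) of PCGF-negative peaks overlapped a RING1B peak, against 82.4% of PCGF-positive peaks and 75.9% of all. In Pcgf1-/- the shares were 60.7% (58.5 to 62.9), 93.7% and 82.5%, and in Pcgf3/5-/- 57.9% (55.6 to 60.1), 95.2% and 82.5%. In Pcgf2/4-/-, the line labelled as lacking the canonical PCGF proteins, they were 40.3% (38.1 to 42.6), 86.1% and 70.6%. In Pcgf3/5/6-/- they were 14.8% (13.3 to 16.5), 63.2% and 46.8%. In Pcgf1/2/4-/-, where a peak in both libraries was asked for, 2.21% (1.64 to 2.99), 24.5% and 17% were kept, and each library alone held 5.24% and 4.37% of the PCGF-negative peaks. The RING1B lists of the first 4 lines held 5563 to 5696 peaks, close to the 5454 of wild-type, that of Pcgf3/5/6-/- 3068, and those of Pcgf1/2/4-/- 2051 and 1814.

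Below RING1B fold 8 this order was reversed in Pcgf6-/-. At fold 6 to 8, PCGF-negative peaks were kept in Pcgf6-/- at 68.4% (65.1 to 71.6) and PCGF-positive ones at 57.9% (53.5 to 62.1), and under fold 6 at 53.9% (50.6 to 57.2) and 31.3% (25.7 to 37.6). At fold 8 to 10 they were 80.6% and 75.6%, with overlapping intervals, and at fold 10 and above 88.9% of 18 members and 94.9%. In Pcgf2/4-/- the direction stayed, with 47.5% (44.0 to 51.0) against 73.8% (69.8 to 77.5) at fold 6 to 8 and 30.4% against 78.3% under fold 6. It also stayed in Pcgf1-/-, with 67.9% against 83.7% at fold 6 to 8, and in Pcgf3/5-/-, with 67.4% against 86.8%. In Pcgf1/2/4-/- the shares at fold 6 to 8 were 2.42% (1.55 to 3.74) and 30.1% (26.3 to 34.2). In Pcgf3/5/6-/- they were 17.3% (14.8 to 20.1) and 22.2% (18.8 to 26.1), and the intervals overlapped. Members at or above the median fold were kept at 86.3% in Pcgf1-/-, 57.9% in Pcgf2/4-/-, 87.4% in Pcgf3/5-/- and in Pcgf6-/-, 4.21% in Pcgf1/2/4-/- and 40% in Pcgf3/5/6-/-, over 95 peaks.

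**Figure D4:**
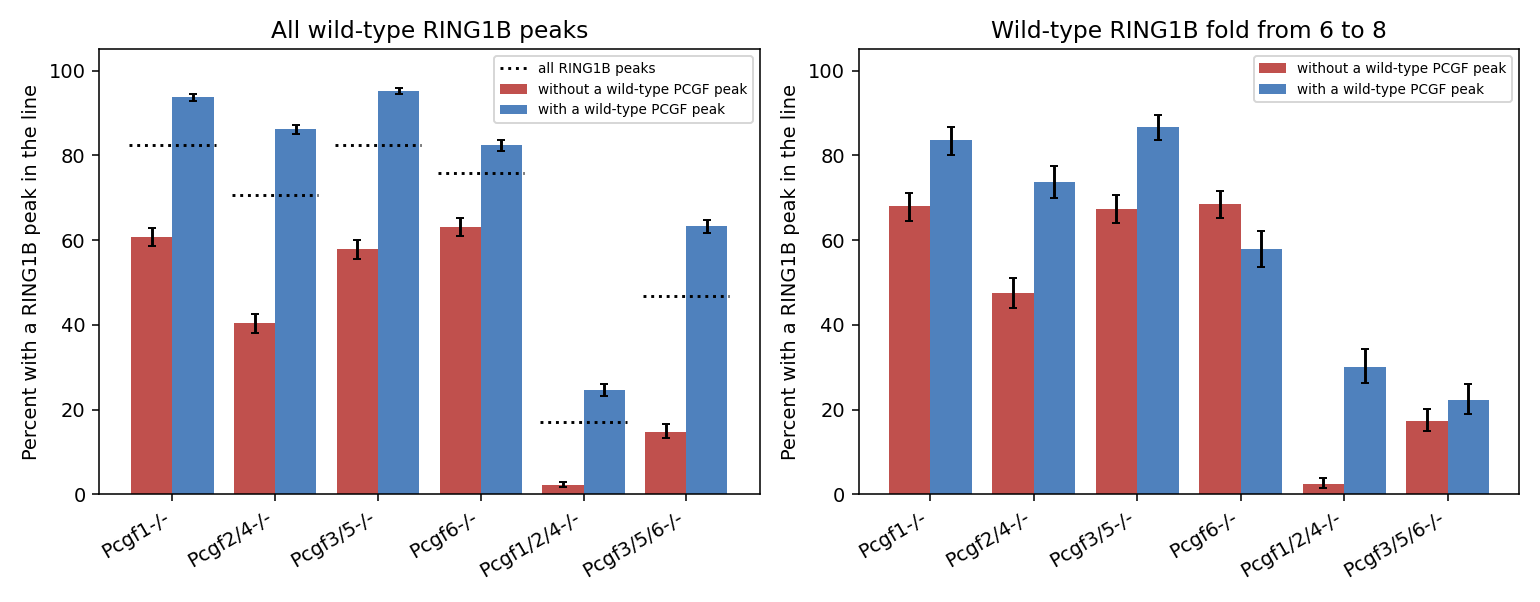
Percent of wild-type RING1B peaks (y axis) that overlap a RING1B peak in each knockout line (x axis), for all peaks on the left and for wild-type fold 6 to 8 on the right; bars are peaks without and with a wild-type PCGF peak, whiskers are 95% Wilson intervals over peaks, dotted lines on the left are all RING1B peaks. Peaks without a PCGF are kept least in Pcgf1/2/4-/-, at 2.21%, and at fold 6 to 8 they are above the others in Pcgf6-/- (68.4% against 57.9%).

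Seen peak by peak, 135 members (7.29%) were in 0 of the 7 other RING1B lists, 354 in 1, 431 in 2, 511 in 3, 300 in 4, 110 in 5 and 11 in 6. No member was in all 7, whereas 423 PCGF-positive peaks (11.7%) were. RING1B peaks that did lie on members ranked low in the knockout lists as well, at median percentiles of fold from 23.0 in Pcgf3/5/6-/- to 38.3 in Pcgf6-/-, while those on PCGF-positive peaks stood at 55.4 to 69.9.

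Within the set, the fate of RING1B in a line went with other calls in that line and with position. The 1420 members with a PCGF2 peak in Pcgf6-/- kept RING1B there in 81.1% of cases, against 4.17% of the 432 without. Both calls come from the same cells. Members with H3K4me3 in wild-type kept RING1B in Pcgf2/4-/- at 47.7%, those without it at 9.32%, whereas in Pcgf6-/- the shares were 59.9% and 76.8%. The 682 members within 10000 bp of a PCGF-positive RING1B peak had H3K4me3 in 63.8% of cases, against 90.9% of the 1170 farther away. They kept RING1B in Pcgf2/4-/- at 20.5% against 51.9%, and in Pcgf6-/- at 75.8% against 55.7%. Median fold was nearly equal in the near and far groups, 6.09 and 6.11. It was less equal in the other contrasts. With and without a PCGF2 peak in Pcgf6-/- it was 6.24 and 5.67, with and without H3K4me3 6.12 and 5.78. These contrasts were chosen after seeing the data and carry no test.

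In each of the 6 lines SUZ12 was called on a larger share of PCGF-negative peaks than RING1B. The SUZ12 lists held 5427 peaks in Pcgf1/2/4-/-, 5364 in Pcgf3/5/6-/-, 5624 in Pcgf1-/-, 6704 in Pcgf6-/-, 6365 in Pcgf3/5-/- and 8077 in Pcgf2/4-/-, against 6473 in wild-type. Except in Pcgf1-/-, they were longer than the RING1B lists of the same lines. The part of list length in these shares was not tested. In Pcgf1/2/4-/- SUZ12 overlapped 49.5% of PCGF-negative and 78.7% of PCGF-positive peaks, and 68.8% of all. In Pcgf3/5/6-/- the shares were 55.6%, 81.04% and 72.4%. In Pcgf1-/- they were 64.96%, 88.98% and 80.8%, in Pcgf6-/- 69.9%, 83.4% and 78.8%, in Pcgf3/5-/- 73.2%, 92.0% and 85.6%. In Pcgf2/4-/- SUZ12 overlapped 83.6%, about as in wild-type, against 92.7% and 89.6%, while RING1B was called on 40.3%. H2AK119Ub1 lists ran from 1070 to 128786 peaks, so that their overlaps cannot be set side by side as levels. In Pcgf3/5-/-, with the longest list, H2AK119Ub1 was on 95.6% of PCGF-negative peaks and 98.1% of all. In the 2 libraries of Pcgf1/2/4-/- it was on 1.13% and 0.702%, against 5.43% and 3.19% of all.

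The genes at PCGF-negative promoters were mostly silent or low in wild-type cells. A gene counted as a member gene if a start lay within 2500 bp of a PCGF-negative peak and none lay as near a PCGF-positive one, which gave 979 annotated genes, of which 842 code for proteins. Of these, 844 were matched in the count table and 655 passed the filter on low counts. The filter keeps a gene that is high in any group, so counts over these 655 do not stand for all member genes. In wild-type, 839 member genes with a single annotation had a median of 0.535 CPM (counts scaled to library size) per kilobase of exon, above the 0.303 of 2566 PCGF-positive genes and below the 1.61 of all 21813 genes. At least 1 on that scale was reached by 39.8% of member genes, 33.5% of PCGF-positive genes and 53.8% of all. No count in either wild-type library was found for 16.4%, 21.5% and 25.8%.

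Most genes of the developmental lists were PCGF-positive, which by the rule keeps them out of the member genes. Of the 23377 genes in the count table, 3.61% were member genes and 11.1% PCGF-positive, the shares beside which the list counts stand. Of a list of 62 developmental transcription factors, 0 were member genes and 59 PCGF-positive, and of 37 Hox genes 0 and 33. Of 49 secreted signals and receptors 3 were member genes (Dkk1, Inhba, Kit) and 43 PCGF-positive. Of 30 germline genes 1 was a member gene (Sohlh2) and 18 PCGF-positive, and of 49 Polycomb subunits 2 (Cbx2, Yaf2) and 10. None of 21 pluripotency, 14 fibroblast, 16 primitive endoderm or 10 markers of the state like 2-cell embryos was a member gene, and 1, 4, 12 and 0 were PCGF-positive. The genes with the strongest promoter peaks did not all follow the peak: Twist1, Slc9a5 and A830082K12Rik also had a start near a PCGF-positive peak and so were no member genes, whereas Apoa1 and Prokr2 were.

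Total counts of the 14 RNA-seq libraries ran from 2147968 to 7848161, and 15464 genes were tested. The targeted transcripts were low where their loss was labelled for Pcgf1 (66.1 and 61.0 CPM in wild-type, 4.81 and 3.20 in Pcgf1-/-) and for Pcgf6 in Pcgf6-/- (36.2 and 34.3, then 0 and 0). In the line labelled Pcgf3/5/6-/- Pcgf6 stood at 42.02 and 37.2, in Pcgf1/2/4-/- Pcgf2 stood at 57.1 and 56.9 against 42.9 and 48.9, and neither Pcgf2 (41.0 and 54.8) nor Bmi1 (12.1 and 14.1, against 16.1 and 14.2) was lowered in Pcgf2/4-/-. In Pcgf3/5-/- Pcgf3 had 11.4 and 12.8 against 16.4 and 15.5 and did not pass the test, while Pcgf5 fell from 12.98 and 10.8 to 5.48 and 4.60. Pcgf5 was about as low in Pcgf1-/- (5.36 and 4.12) and in Pcgf2/4-/- (3.77 and 5.88), so its fall was not particular to the line labelled as lacking it. Transcript level therefore does not check the labels of Pcgf2/4-/- or Pcgf3/5-/-, or the whole of those of both lines with 3 losses, and directions drawn from these lines rest on the labels. Pcgf1 was low in Pcgf1/2/4-/-, at 0.534 and 0.903. Pluripotency markers summed to between 3526 and 6362 CPM in every library, and all 21 had counts. Fibroblast markers summed to 442 to 940, against 755 and 759 in wild-type. Primitive endoderm markers summed to 355 and 346 in wild-type, 560 and 570 in Pcgf6-/-, 756 and 783 in Pcgf3/5/6-/-, 483 and 502 in Pcgf1/2/4-/- and 212 and 209 in Pcgf1-/-. Markers of the 2-cell-like state summed to 478 and 489 in wild-type and 897 and 993 in Pcgf6-/-, over 8 genes in the table, of which Gm4340 had no count in any library. Their part in the differences below was not tested. Whether fewer cells or less RNA per cell lies behind a lower level cannot be told apart in bulk samples.

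Each line was compared with wild-type by the quasi-likelihood test of edgeR. The p-values carry a Benjamini-Hochberg adjustment over the 15464 genes, and the threshold was 0.05. Nothing in the labels says whether the 2 libraries of a line were separate cultures, so the p-values cover the spread between these libraries. All 6 comparisons share the wild-type libraries. The genes named are, per line, the 3 raised and 3 lowered member genes with the largest fold change among those past the test with enough expression and no overlap between libraries of the groups, and their values are the ones they were chosen on. Msrb3, Fam83h, Galnt10, Rbm47, Baiap2l1, Creg2 and Ntn1 overlap other annotated genes, and strand use in counting is not given in the sources used here.

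In Pcgf6-/- 296 member genes (45.2%) were raised and 115 (17.6%) lowered, against 27.8% and 18.6% of all genes. Among PCGF-positive genes 46.6% were raised and 16.1% lowered, close to the shares of member genes. The median log2 fold change of member genes was 0.54, that of PCGF-positive genes 0.66 and that of all genes 0.03. Krt7, a keratin of simple epithelia, went from 0.856 and 0.563 to 25.1 and 20.2 CPM (log2 fold change 4.96 ± 0.30 SE, edgeR adjusted p = 1.1e-08). Nrk, a kinase known from trophoblast, had 0.856 and 0.844 and then 9.84 and 14.1 (log2 3.77), and the ubiquitin ligase gene Hecw2 1.14 and 0.844, then 13.3 and 14.2 (log2 3.76). RING1B was not called in Pcgf6-/- at the Krt7 and Nrk peaks or at the stronger of the Hecw2 peaks. Kirrel2, an adhesion protein of the nephrin family, fell from 14.98 and 18.004 to 0.498 and 0.460 (log2 fold change -5.03 ± 0.44, edgeR adjusted p = 4.8e-07). Nt5e, the ecto-nucleotidase CD73, fell from 123 and 117 to 12.1 and 12.1 (log2 -3.31). Both kept the RING1B peak in that line. With loess offsets, which take out trends with expression level, 58.7% of the changed member genes were raised, against 72.0% in the fit reported, and 53.1% against 59.9% of the changed genes overall. The member median was then 0.19.

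Of the 6 lines, Pcgf3/5/6-/- had the largest share of raised member genes. There 352 member genes (53.7%) were raised and 78 (11.9%) lowered, against 28% and 25.3% of all genes. For PCGF-positive genes the shares were 56.6% and 11.6%. The median log2 fold change of member genes was 0.91, against 1.10 for PCGF-positive genes and 0.05 for all. Krt7 reached 215 and 214 CPM (log2 8.20 ± 0.25, edgeR adjusted p = 6.7e-11), Nrk 147 and 146 (log2 7.39), and Hecw2 23.7 and 17.2 (log2 4.34). RING1B was not called at the Krt7 and Nrk peaks in that line and was called at the stronger of the Hecw2 peaks. With loess offsets the member median was 0.55, with 297 raised and 100 lowered. Nt5e fell to 6.00 and 8.45 (log2 -4.06 ± 0.18, edgeR adjusted p = 9.7e-10), Ntn1, the axon guidance factor netrin 1, from 58.4 and 62.3 to 6.32 and 3.72 (log2 -3.57), and Kirrel2 to 1.90 and 2.37 (log2 -2.94). RING1B was called at the Nt5e and Ntn1 peaks and not at that of Kirrel2.

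In Pcgf1-/- 144 member genes (22.0%) were raised and 132 (20.2%) lowered, against 13.9% and 18.4% of all genes. For PCGF-positive genes the shares were 20.4% and 21.1%, close to those of member genes. The median log2 fold change was 0 for member genes and -0.05 for all. Hhip, which sequesters Hedgehog ligands, rose from 2.71 and 2.53 to 29.6 and 26.1 CPM (log2 3.41 ± 0.29, edgeR adjusted p = 1.9e-06). Mapk8ip2, a scaffold of the JNK pathway, went from 7.70 and 8.30 to 62.2 and 55.1 (log2 2.88), and Msrb3, a methionine sulfoxide reductase, from 4.42 and 3.66 to 30.3 and 26.1 (log2 2.81). Ppp1r3b, a glycogen-targeting subunit of protein phosphatase 1, fell from 7.13 and 4.64 to 0.656 and 0.457 (log2 -3.27), and the adenylyl cyclase gene Adcy2 from 27.5 and 25.7 to 2.95 and 2.51 (log2 -3.24, edgeR adjusted p = 2.3e-07). RING1B was called in that line at the peaks of raised Hhip and of lowered Ppp1r3b and Adcy2. It was not called at those of raised Mapk8ip2 and Msrb3 or of lowered Krt7. Krt7 had 10 counts over the wild-type libraries and 1 over the knockout ones, a ratio of 0.104 with a counting interval from 0.00241 to 0.734, and its call (edgeR adjusted p = 0.030) was lost with DESeq2 and without any 1 of 3 libraries. Without Pcgf1-/- replicate 1 the count of changed member genes fell from 276 to 173, and without wild-type replicate 1 to 164. The member median was 0.14 without Pcgf1-/- replicate 2 and -0.07 without replicate 1, with -0.02 for all genes in both fits. With only the 2 groups fitted 138 member genes were raised and 70 lowered. Raised genes were then 66.3% of the changed member genes, against 54.2% of all changed genes. In the fit reported these shares were 52.2% and 42.9%, so the balance of all genes moved as well.

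In Pcgf3/5-/- 129 member genes (19.7%) were raised and 96 (14.7%) lowered, against 11.1% and 10.4% of all genes. Among PCGF-positive genes 18.2% were raised and 13.2% lowered. Medians of member genes and of all genes were 0.09 and 0 on the log2 scale. Brsk2, a kinase of neuronal polarity, rose from 3.00 and 2.53 to 29.9 and 23.97 CPM (log2 3.28 ± 0.27, edgeR adjusted p = 1.8e-06). Psd4, an exchange factor for ARF6, went from 6.14 and 4.92 to 46.8 and 38.7 (log2 2.95), and Armcx3, a protein of the mitochondrial outer membrane, from 1.71 and 2.81 to 15.4 and 12.8 (log2 2.64). The RNA-binding protein gene Rbm47 fell from 49.5 and 48.7 to 12.4 and 10.2 (log2 -2.10 ± 0.14, edgeR adjusted p = 2.8e-07). Baiap2l1, an actin regulator, fell from 5.28 and 6.75 to 1.60 and 1.53 (log2 -1.92), and Creg2, a secreted glycoprotein, from 4.99 and 4.64 to 0.802 and 1.92 (log2 -1.90), a call that was lost without Pcgf3/5-/- replicate 1. RING1B was called at all 3 lowered genes in that line. Among the raised genes it was called at Armcx3, and not at Psd4 or the stronger of the Brsk2 peaks. The count of 225 changed member genes became 123 without Pcgf3/5-/- replicate 1, 116 without wild-type replicate 1 and 110 without wild-type replicate 2. The member median also moved with single libraries. It was -0.01 without Pcgf3/5-/- replicate 1, with -0.001 for all genes, and 0.13 without replicate 2, with -0.02 for all genes.

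In Pcgf2/4-/- most of the changed member genes were lowered. Lowered were 174 (26.6%) and raised 55 (8.40%), against 13.5% and 8.1% of all genes and 22.9% and 8.66% of PCGF-positive genes. The median log2 fold change of member genes was -0.27, as for PCGF-positive genes, against 0 for all. The size of that median rested on single libraries: it was -0.12 without Pcgf2/4-/- replicate 1 (74 raised, 140 lowered) and -0.66 without replicate 2 (34 and 162), with -0.16 for all genes in the latter fit. Arhgdig, a regulator of small GTPases, had 144 counts over the wild-type libraries and 3 over the knockout ones, a ratio of 0.0288 with a counting interval from 0.00587 to 0.0859. Adamts14, a procollagen protease, had 64 and 2, a ratio of 0.0432 (0.00512 to 0.163). Trf, which encodes transferrin, fell from 36.7 and 26.3 to 1.26 and 2.56 CPM (log2 -3.81 ± 0.31, edgeR adjusted p = 4.3e-06). At none of these 3 was RING1B called at the strongest member peak in that line, nor at those of the raised genes Fam83h, Galnt10 and Armcx3. Fam83h, a partner of keratin filaments, rose from 1.85 and 3.09 to 9.21 and 13.9 (log2 2.31), and Galnt10, a transferase of O-linked glycosylation, from 1.57 and 1.41 to 3.77 and 6.39 (log2 1.90), a call lost without Pcgf2/4-/- replicate 2. Armcx3 went to 8.38 and 5.88 (log2 1.54), a call lost without wild-type replicate 1 and with only the 2 groups fitted. Fitted on the 2 groups alone, 99 member genes were changed instead of 229, and without wild-type replicate 1 146 were.

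In Pcgf1/2/4-/-, where RING1B was called on 2.21% of PCGF-negative peaks, the shares of raised and lowered member genes were near those of all genes. Raised were 81 (12.4%) and lowered 133 (20.3%), against 14.4% and 22.6% of all genes. Among PCGF-positive genes 16.3% were raised and 15.7% lowered. The median log2 fold change of member genes was -0.11, equal to that of all genes. With loess offsets the majority turned, with 133 raised and 99 lowered, and the median over all genes moved from -0.11 to -0.01. Without Pcgf1/2/4-/- replicate 2 the member median was -0.20 and that of all genes -0.13. Krt7 had 4.81 and 9.03 CPM (log2 3.28 ± 0.46, edgeR adjusted p = 0.00012), Nrk 6.41 and 7.23 (log2 2.98), and Parm1, a mucin-like membrane protein, rose from 6.28 and 5.06 to 35.8 and 44.7 (log2 2.83). Tspan18, a tetraspanin, had 170 counts over the wild-type libraries and 1 over the knockout ones, a ratio of 0.0203 (0.000511 to 0.115), and Rasgrp1, a Ras exchange factor, 152 and 3, a ratio of 0.0682 (0.0139 to 0.203). The count of 214 changed member genes became 113 and 110 without either knockout library and 141 without wild-type replicate 1.

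Expression was then set beside the fate of RING1B at the same genes. In Pcgf3/5/6-/-, 329 of the 580 member genes without a RING1B call in that line (56.7%) were raised, against 23 of the 75 with a call (30.7%), and lowered were 9.66% and 29.3%. In Pcgf6-/- 53.4% of 294 and 38.5% of 361 were raised, and 11.2% and 22.7% lowered. In Pcgf3/5-/- the raised shares were 19.9% of 272 and 19.6% of 383, in Pcgf1-/- 24.3% of 268 and 20.4% of 387, and in Pcgf2/4-/- 8.86% of 271 and 8.07% of 384. For Pcgf1/2/4-/- 12.3% of 624 and 12.9% of 31 were raised. The gap in raised shares was widest in Pcgf3/5/6-/- and Pcgf6-/-. RING1B and RNA came from different libraries. For Pcgf6-/-, the count columns and the authors' deposited comparison table carry different clone numbers and the ChIP labels none, so whether RNA and ChIP came from the same clone cannot be told. The split was chosen after seeing the data and was not tested.

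**Figure D5:**
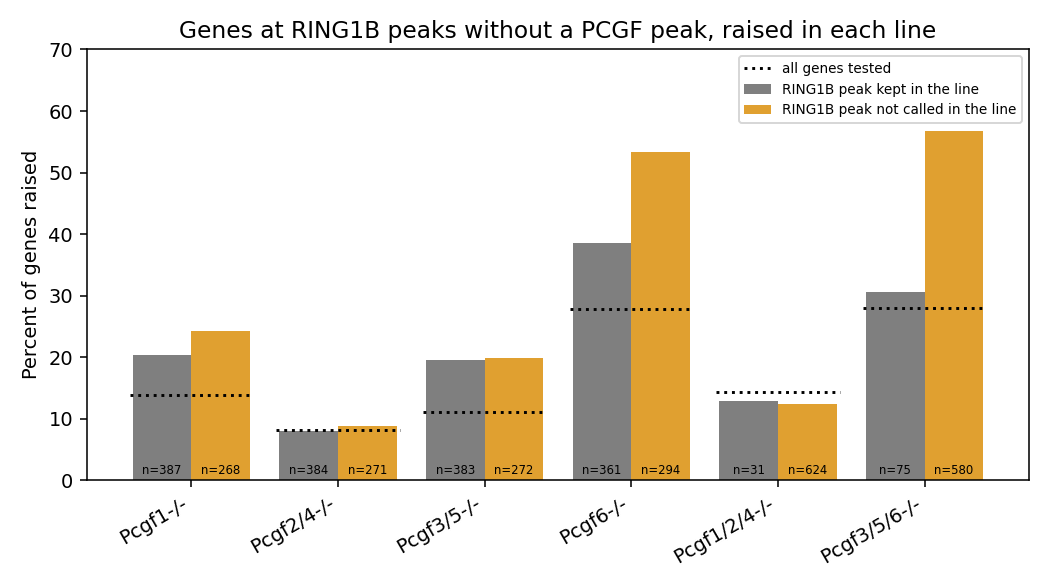
Percent of member genes raised (y axis, edgeR adjusted p below 0.05, 2 libraries against 2) in each knockout line (x axis), divided by whether RING1B was called at the gene in that line; n is the number of genes and dotted lines are all 15464 genes tested. In Pcgf3/5/6-/- 56.7% of the genes without and 30.7% of those with a call were raised.

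Across the 6 lines, 163 of the 655 member genes (24.9%) were raised in none, against 45% of all genes tested, and 310 (47.3%) were lowered in none, against 46.9%. In all 6 lines 8 member genes (1.22%) were raised, against 0.317%, and 5 (0.763%) lowered, against 0.472%. The members of the gene lists moved in different directions. Sohlh2, a bHLH factor of early germ cells, had 39.4 and 32.4 CPM in wild-type, 238 and 249 in Pcgf6-/- (log2 2.76, edgeR adjusted p = 9.8e-10), 231 and 225 in Pcgf3/5/6-/- (log2 2.67), 110 and 107 in Pcgf3/5-/- (log2 1.59) and 10.7 and 12.6 in Pcgf1/2/4-/- (log2 -1.61). In Pcgf2/4-/- it had 51.1 and 55.7 (log2 0.58, edgeR adjusted p = 0.0056) and in Pcgf1-/- 26.8 and 22.2 (log2 -0.53, edgeR adjusted p = 0.0075), and both calls were lost when only the 2 groups were fitted. The former was also lost without wild-type replicate 2, and the latter without wild-type replicate 1 or Pcgf1-/- replicate 2. Dkk1, a secreted Wnt antagonist, had 7.85 and 7.74 in wild-type, 54.7 and 52.1 in Pcgf6-/- (log2 2.77, edgeR adjusted p = 8.3e-09), 40.1 and 37.2 in Pcgf3/5/6-/- (log2 2.31) and 3.39 and 2.06 in Pcgf1-/- (log2 -1.41). In Pcgf3/5-/- it had 11.6 and 12.3 (log2 0.61, edgeR adjusted p = 0.028), a call lost without any 1 of the 4 libraries compared. The call was also lost without the filter on low counts and with only the 2 groups fitted. Kit, the receptor of stem cell factor, had 174 in both wild-type libraries, 60.7 and 59.7 in Pcgf1-/- (log2 -1.53, edgeR adjusted p = 8.4e-07), 112 and 101 in Pcgf3/5-/- (log2 -0.71) and 248 and 244 in Pcgf6-/- (log2 0.50). Inhba, a subunit of activin, had no count in 11 of the 14 libraries and was not tested.

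Of the Polycomb subunits, Cbx2, a chromodomain protein of canonical complexes, had 34.8 and 35.02 CPM in wild-type, 94.5 and 79.4 in Pcgf3/5/6-/- (log2 1.32, edgeR adjusted p = 7.6e-05) and 67.3 and 67.7 in Pcgf1/2/4-/- (log2 0.95). In Pcgf1-/- it had 55.9 and 51.0 (log2 0.62, edgeR adjusted p = 0.026), a call lost without either wild-type library and without Pcgf1-/- replicate 1. Yaf2, a partner of variant complexes, had 24.3 and 25.5 in wild-type, 39.0 and 46.3 in Pcgf6-/- (log2 0.77, edgeR adjusted p = 0.00022) and 36.7 and 42.3 in Pcgf1-/- (log2 0.66). It was lower in Pcgf1/2/4-/-, at 14.9 and 15.8 (log2 -0.69, edgeR adjusted p = 0.0092), and in Pcgf2/4-/-, at 16.3 and 18.4 (log2 -0.49, edgeR adjusted p = 0.032), and both calls were lost with loess offsets. The call in Pcgf1/2/4-/- was also lost without either knockout library. That in Pcgf2/4-/- was also lost with DESeq2, without the filter, with only the 2 groups fitted, and without any single library of those compared. Apoa1, with the strongest PCGF-negative peak, had 7.85 and 6.89 in wild-type and did not pass the test in 5 lines. Only Pcgf1/2/4-/- gave a call, with 1.07 and 4.06 (log2 -1.45, edgeR adjusted p = 0.037). Prokr2 had no count in either wild-type library and at most 12 counts in any other, and was not tested.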

How the data were processed

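Peak lists of 80 ChIP-seq libraries and a count table of 23377 genes in 14 RNA-seq libraries (7 lines, 2 each) were used. Per the file headers and values, the deposited peak lists give each peak's fold enrichment and its −log10 p and −log10 q, and the lowest −log10 p is 10. The authors' gene counts were deposited as raw counts. The submitters' processing notes name Bowtie 1.2.2, TopHat2 2.1.1, HTSeq 0.7.2, MACS2 2.1.1, Picard 1.62, DESeq2 3.7 and mm9, with no roles. Coordinates were read on NCBIM37 with GENCODE M1, the build named mm9 in those notes. All 22 chromosome names matched, which by itself does not set the build. The largest peak end passed the chromosome length on 1 chromosome, chrM, at 16326 against 16299. Per the labels' protocols, histone ChIP carried a Drosophila spike-in, and PCGF1 ChIP used an additional crosslinker; no spike-in scaling was applied here.

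Overlap meant at least 1 shared base, a promoter the 2500 bp around an annotated transcript start, and RING1B was kept where any peak of the line's list overlapped. In Pcgf1/2/4-/- both libraries had to hold a peak. Shares have 95% Wilson intervals, which cover the counting of peaks only. Counts were fitted with edgeR 4.0.16 (quasi-likelihood, TMM, filterByExpr, all 14 libraries in 1 fit, limma 3.58.1, R 4.3.3) with Benjamini-Hochberg adjustment at 0.05, tested on simulated data first. Python 3.11.15, pandas 2.3.3, SciPy 1.17.1, NumPy 2.4.6 and matplotlib 3.10.9 did the rest. Of the 23377 gene symbols, 21001 matched the annotation by name and 994 through RefSeq synonyms.

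The members, gene lists (developmental transcription factors, Hox genes, secreted signals and receptors, germline genes, pluripotency genes, Polycomb subunits, fibroblast, primitive endoderm and two-cell-like markers) and tests were chosen with earlier results of these data known. Named genes were, per line, the 3 raised and 3 lowered member genes with the largest log2 fold change among those past the test, with a mean log2 CPM of at least 2 and no overlap between the groups' libraries, plus the genes at the 6 strongest promoter peaks and the members of the lists. A gene that this rule names in Pcgf6-/- and Pcgf1/2/4-/- is not reported here. Named regions were the 6 members with the highest fold and those at the edge of the rule; no member overlapped RING1B peaks in all 7 other lists. Alternatives were DESeq2 1.42.0, RLE factors, loess offsets, no filter, the 2 groups alone, a replicate block, left-out libraries, and other overlap, threshold and promoter settings.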

Additional observations from a re-analysis of the deposited data

How the results depend on the processing

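Counting a PCGF peak within 1000 bp as overlap gave SUZ12 on 86.5% of PCGF-negative peaks and RING1B kept on 46.3% in Pcgf2/4-/- and 60.5% in Pcgf6-/-. Asking PCGF peaks to cover at least 50% of a RING1B peak gave a median fold of 6.54, SUZ12 87.6%, and 67.9% kept in Pcgf1-/-, 48.4% in Pcgf2/4-/-, 66.0% in Pcgf3/5-/-, 67.4% in Pcgf6-/-, 4.24% in Pcgf1/2/4-/- and 21.7% in Pcgf3/5/6-/-. With RING1B −log10 q of at least 10 there were 1116 members, a median fold of 6.80, SUZ12 91.7%, and 69.6%, 46.8%, 68.9% and 71.1% kept in the first 4 lines and 19.3% in Pcgf3/5/6-/-. With PCGF −log10 q of at least 10 the values were 6.35, 85.8%, then 65.7% in Pcgf1-/-, 47.7% in Pcgf2/4-/-, 64.1% in Pcgf3/5-/-, 4.68% in Pcgf1/2/4-/- and 18.4% in Pcgf3/5/6-/-. Removing PCGF peaks also called in the own knockout gave 3.44% in Pcgf1/2/4-/-. Adding PCGF peaks of Ring1a-/-_Ring1bfl and shCtr left 380 members with a median fold of 5.79, 68.9% at promoters, SUZ12 72.4%, and 55%, 16.8%, 47.4%, 53.9%, 1.05% and 6.58% kept in the order Pcgf1-/-, Pcgf2/4-/-, Pcgf3/5-/-, Pcgf6-/-, Pcgf1/2/4-/-, Pcgf3/5/6-/-. A promoter window of 1000 bp gave 67.5%. With knockout −log10 q of at least 10 the kept shares, in that order, were 47.8%, 21.3%, 42.3%, 51.8%, 0.81% and 8.48%. For members at or above the median fold they were 86.3%, 57.9%, 87.4%, 87.4%, 4.21% and 40%. For fold 6 to 8, a range chosen after seeing the data, they were 67.9%, 47.5%, 67.4% and 68.4% in the first 4 lines and 17.3% in Pcgf3/5/6-/-. The cause was not tested in any of these.

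Changed member genes numbered 99 in Pcgf2/4-/- when only the 2 groups were fitted. Leaving out 1 library at a time gave 164 to 231 in Pcgf1-/-, 146 to 214 in Pcgf2/4-/-, 110 to 150 in Pcgf3/5-/-, 346 to 367 in Pcgf6-/-, 110 to 151 in Pcgf1/2/4-/- and 369 to 380 in Pcgf3/5/6-/-. No label says that replicate numbers pair libraries, and they were not taken as pairs: correlations of same-numbered libraries ran from -0.0228 to 0.0597 between wild-type and a knockout, and from -0.462 to 0.375 over all 21 pairs of groups. A fit with the replicate block gave 259, 209, 198, 404, 206 and 421 changed member genes in the order Pcgf1-/-, Pcgf2/4-/-, Pcgf3/5-/-, Pcgf6-/-, Pcgf1/2/4-/-, Pcgf3/5/6-/-. Of the 36 named gene and line pairs, 4 lost their call under at least 1 alternative. Each ChIP list rests on 1 library, lists differ in length, and a missing peak is no measure of absence.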
